A study of Mus musculus with 24 samples.

Results

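The integrated stress response and the unfolded protein response were followed through 41 genes in the entorhinal cortex of mice whose neurons had been silenced for up to 3 days. The genes were taken by name, as targets of the transcription factor ATF4 and genes of endoplasmic reticulum (ER) stress. All 41 were found among the 55417 genes of the count table, and 40 of them were among the 16767 genes that passed a filter on low counts and could be tested. The remaining member, Gdf15, had too few reads. The comparison asks whether taking activity away from adult entorhinal neurons moves these stress programmes.

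Each library came from subdissected entorhinal cortex of a mouse aged 2 to 4 months, labelled tg/tg for the cross of Nop-tTA Line S with TRE-GlyCl-YFP Line 9531. The 4 groups held 6 libraries each: vehicle, and day 1, day 2 and day 3 after GlyCl activation. Vehicle animals carried the same transgenes as the others, there was no group without them, and the labels do not give the agent that activated the channel or the time at which vehicle tissue was taken. The vehicle animals were 4 females and 2 males; at every later time point both sexes gave 3 animals. GlyCl is an engineered chloride channel derived from the glycine receptor, and Nop-tTA uses the neuropsin (Klk8) promoter, which drives expression mainly in superficial entorhinal neurons. The channel is therefore carried by a part of the neurons, while the RNA comes from the whole dissected tissue with its glia and vessels. In such bulk samples, fewer cells of a type and less RNA per cell cannot be told apart.

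In the integrated stress response, kinases that sense different stresses phosphorylate the initiation factor eIF2. Most translation slows down, while the mRNA of ATF4 is translated more and the protein switches on genes for amino acid supply, redox balance and growth restraint. In the unfolded protein response, the ER membrane proteins PERK (gene Eif2ak3), IRE1 (Ern1) and ATF6 sense misfolded proteins; PERK leads into the ATF4 branch, and IRE1 and ATF6 lead to genes for chaperones and for the removal of proteins from the ER. Neurons, with their large secretory and membrane load, use both programmes. Part of the control is invisible to a count of reads per gene: the translation of Atf4, the splicing of Xbp1 by IRE1 and the cleavage of ATF6 leave the gene's read count as it is.

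Total counts ranged from 16.6 to 23.7 M reads per library, and the biological coefficient of variation over all genes was 8.51%. Levels are given as CPM: a gene's count scaled to the library's total over the tested genes, with TMM normalization factors applied. They are not scaled to gene length and are compared between groups, not between genes. None of the genes of 9 marker lists for the cell types of this tissue was at 0. The 8 excitatory neuron markers summed to 10316 to 11478 CPM per library and the 6 markers of superficial entorhinal neurons to 567 to 719 CPM. Ttr, a gene of the choroid plexus (the tissue that makes cerebrospinal fluid), was at 562 to 1171 CPM in 8 libraries (1 of vehicle, 2 of day 1, 2 of day 2 and 3 of day 3) and at 8.37 to 25.9 CPM in the other 16, so results that rest on the 8 are also given without them.

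Some promoters of the members carry elements through which these pathways are known to act: of 35 members with a promoter window, 11 held a match to at least 1 of 3 motifs searched and 24 held none. RefSeq windows of 250 bases before to 50 bases after the transcription start (mouse build GRCm38.p6, which is not the build named by the submitters) came as 38 windows for the 35 members and were searched on both strands. The core TGATGNAA, which ATF4 binds together with C/EBP factors in amino acid response genes, was in 6 of the 38 windows (15.8%), against 3.97% of all 32851 windows in the table. Those 6 belonged to Asns, Chac1, Herpud1, Nupr1, Pck2 and Trib3. The ER stress element bound by ATF6 with NF-Y, CCAAT followed after 9 bases by CCACG, was in 5 windows (13.2%), against 0.119% of all windows. These were the windows of Calr, Canx, Creld2, Hspa5 and Hsp90b1, the last with 2 matches. The letters TGACGTGG, a site of XBP1 and ATF6, were in 0 of the 38 windows and in 0.676% of all. A match describes the letters and does not show that a factor was bound in this tissue. The members were taken as genes of these pathways, so the higher shares are a description and no separate support.

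The 4 windows below belong to members that the results turn on and that hold a match, shown in capitals, on the strand of the gene. They show how near to the start each element lies. The matches of Chac1 and Trib3 are on the opposite strand, so the capitals are the reverse complement of the core. The window of Trib3 is at chr2:152344011-152344310 (minus strand), that of Chac1 at chr2:119350992-119351291 (plus strand), that of Asns at chr6:7693160-7693459 (minus strand) and that of Hspa5 at chr2:34771840-34772139 (plus strand).
Trib3: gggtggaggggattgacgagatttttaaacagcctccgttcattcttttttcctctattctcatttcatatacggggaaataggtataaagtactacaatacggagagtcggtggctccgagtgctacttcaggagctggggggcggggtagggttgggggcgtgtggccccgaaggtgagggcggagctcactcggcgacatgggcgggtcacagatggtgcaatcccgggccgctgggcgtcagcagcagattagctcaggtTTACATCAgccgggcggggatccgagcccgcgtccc
Chac1: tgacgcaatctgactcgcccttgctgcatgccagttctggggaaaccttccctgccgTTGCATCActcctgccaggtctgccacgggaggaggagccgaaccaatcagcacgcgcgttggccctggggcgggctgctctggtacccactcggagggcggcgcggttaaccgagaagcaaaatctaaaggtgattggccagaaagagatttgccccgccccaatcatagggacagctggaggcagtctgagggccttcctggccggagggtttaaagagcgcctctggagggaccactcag
Asns: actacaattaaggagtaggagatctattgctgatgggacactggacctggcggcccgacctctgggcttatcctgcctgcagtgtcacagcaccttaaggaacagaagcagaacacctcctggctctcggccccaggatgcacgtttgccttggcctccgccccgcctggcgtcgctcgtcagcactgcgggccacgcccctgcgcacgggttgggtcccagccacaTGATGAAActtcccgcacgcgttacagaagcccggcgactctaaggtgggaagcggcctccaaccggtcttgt
Hspa5: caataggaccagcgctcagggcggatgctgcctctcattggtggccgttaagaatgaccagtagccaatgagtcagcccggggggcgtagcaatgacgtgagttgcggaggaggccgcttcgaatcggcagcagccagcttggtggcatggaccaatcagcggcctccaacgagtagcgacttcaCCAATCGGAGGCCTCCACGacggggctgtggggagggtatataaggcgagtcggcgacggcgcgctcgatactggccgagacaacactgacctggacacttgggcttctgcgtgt

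The 4 further genes with an ER stress element carried these matches, read 5′ to 3′ on the strand that holds the element, with the fixed letters in capitals and the 9 bases between them in lower case. The spacer differs in every match, also between both matches of Hsp90b1.
Calr: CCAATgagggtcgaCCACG
Canx: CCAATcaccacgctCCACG
Creld2: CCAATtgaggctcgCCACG
Hsp90b1, further from the start: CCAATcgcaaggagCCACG
Hsp90b1, nearer to the start: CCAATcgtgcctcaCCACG

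No member changed at the threshold used. With edgeR's quasi-likelihood test, sex in the model and Benjamini-Hochberg adjustment over all 16767 genes, 0 of 40 members had an adjusted p under 0.05 at day 1, day 2 or day 3 against vehicle. Over all genes tested, 0.0656% were called at day 1, 0.0656% at day 2 and 0.614% at day 3. The smallest adjusted p among the members was 0.425 at day 1 (Hspa5), 0.0941 at day 2 (Sesn2) and 0.463 at day 3 (Edem1). The 3 days tested jointly also called 0 of 40 members, with 0.644% of all genes called and a smallest adjusted p of 0.0882 (Sesn2); 7 of 40 had an unadjusted p under 0.05 there, against 7.07% of all genes. DESeq2 called 0, 1 and 0 members at days 1, 2 and 3, with Sesn2 as the member called at day 2 and again in the joint test, and limma voom called 0 on each day. The shares above are those of edgeR, and the share of all genes that DESeq2 called is not given here.

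The data bound these changes closely. The standard error (SE) of a log2 fold change had a median of 0.07 at each day. At day 1, 39 of 40 members had a 95% confidence interval that lay within a 1.5-fold change in either direction, and Trib3 was the exception. At day 2 the count was 38, with Trib3 and Stc2 as exceptions, and at day 3 it was 39, with Trib3 outside. Within 1.2-fold in either direction lay the intervals of 26, 23 and 26 members at days 1, 2 and 3. In the vehicle libraries the coefficient of variation of a member's CPM had a median of 8.03%, with a range from 2.30% to 35.7%. Intervals of this width speak of RNA in the whole tissue; a larger change in a small part of its cells could lie within them.

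**Figure D1:**
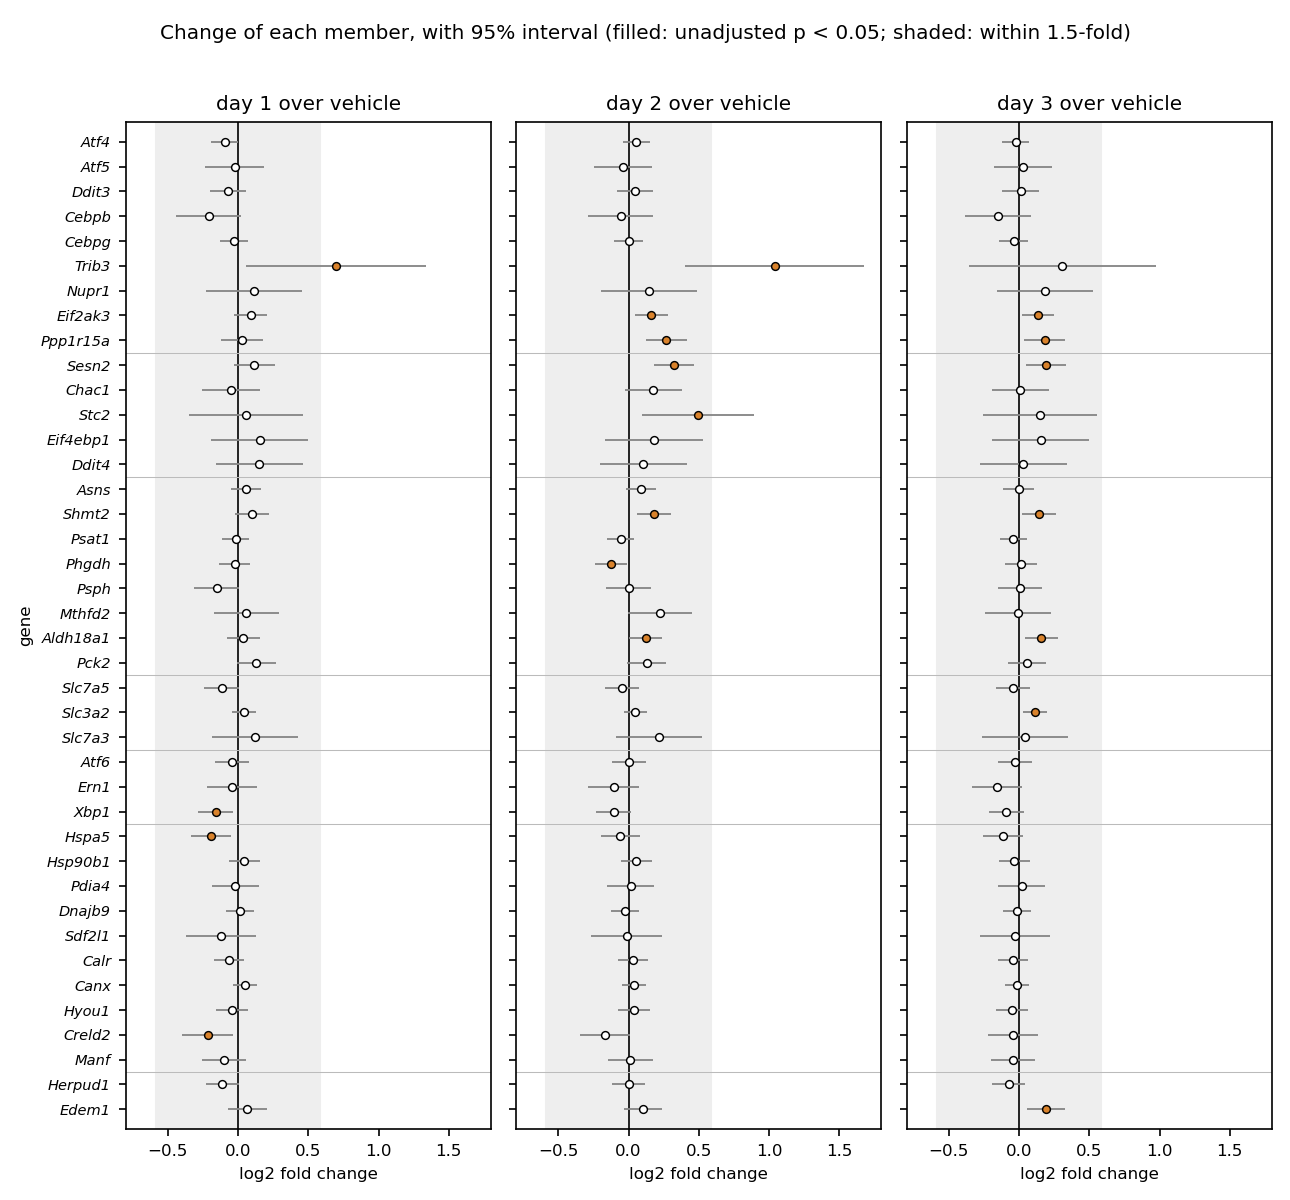
Log2 fold change of each of the 40 tested members (rows, by role) at day 1, day 2 and day 3 over vehicle, with 95% intervals; filled points have an unadjusted p under 0.05 and the shaded band spans a 1.5-fold change either way. Nearly all intervals lie inside the band; that of Trib3 leaves it on each day and that of Stc2 at day 2.

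At an unadjusted p under 0.05, day 1 had 1 member above vehicle (Trib3) and 3 below it (Xbp1, Hspa5 and Creld2), against 2.93% and 4.31% of all genes in those directions. Day 2 had 7 members above vehicle (Trib3, Eif2ak3, Ppp1r15a, Sesn2, Stc2, Shmt2 and Aldh18a1) and 1 below (Phgdh), against 2.74% and 2.46% of all genes. Day 3 had 7 above (Eif2ak3, Ppp1r15a, Sesn2, Shmt2, Aldh18a1, Slc3a2 and Edem1) and 0 below, against 3.58% and 2.06%. The median log2 fold change over the 40 members was -0.02, 0.04 and 0.00 at days 1, 2 and 3, beside a median of 0.00 over all genes on each day. Members with a log2 fold change above 0 numbered 19, 28 and 20 of 40, where all genes gave 50.6%, 50.3% and 49.0%. The 3 comparisons share the vehicle libraries, so a vehicle library that is low or high moves all of them.

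**Figure D2:**
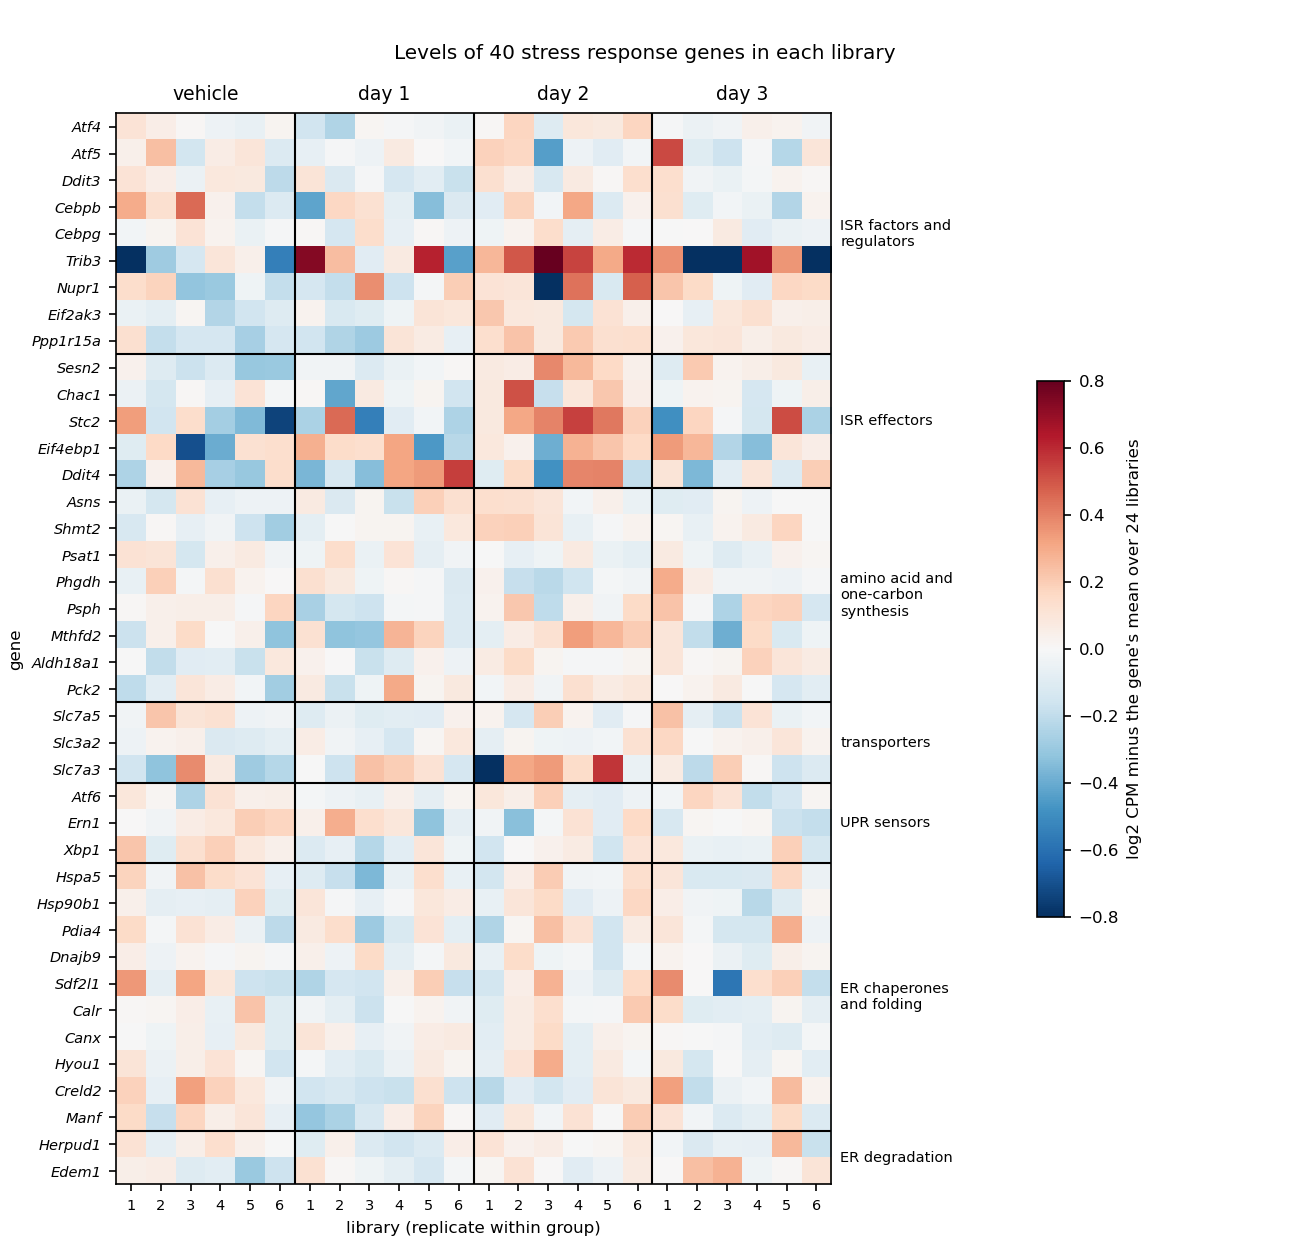
Log2 CPM of the 40 tested members (rows, by role) in each of the 24 libraries (columns), minus the gene's mean over the libraries; the colour scale ends at 0.8 either way, which some values of Trib3 and of a few other genes pass. Trib3, Sesn2 and Stc2 are above their means in all 6 libraries of day 2, and the chaperone rows change colour together from library to library within each group.

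Among the sensors of ER stress, Eif2ak3, which encodes the kinase PERK, had 25.9 to 30.8 CPM in vehicle (median 28.7), 27.98 to 32.8 at day 1 (median 30.4), 27.7 to 35.5 at day 2 (median 32.3) and 29.1 to 33.3 at day 3 (median 31.5). Every later group overlapped vehicle, with its median above the vehicle median. Its log2 fold change was 0.16 ± 0.06 at day 2 (SE, n = 6 per group; unadjusted p = 0.00766, adjusted p = 0.759) and 0.13 ± 0.06 at day 3 (adjusted p = 0.778). Ern1, which encodes IRE1, had medians of 14.3, 14.3, 13.4 and 13.0 CPM in vehicle and at days 1, 2 and 3, and its log2 fold change at day 3 was -0.16 ± 0.09 (adjusted p = 0.966). Xbp1, whose mRNA IRE1 splices into that of an active transcription factor, had 68.5 to 85.8 CPM at day 1 (median 76.1), against 75.1 to 93.5 CPM in vehicle (median 86.5). The 2 ranges overlapped, and the log2 fold change was -0.16 ± 0.06 (unadjusted p = 0.0132, adjusted p = 0.482). The counts do not separate spliced from unspliced Xbp1. Atf6 had log2 fold changes between -0.04 and 0.00 on the 3 days.

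Atf4, the transcription factor at the centre of the response, had 91.6 to 103 CPM in vehicle (median 96.5), 80.8 to 96.3 at day 1 (median 92.7), 88.7 to 107 at day 2 (median 101) and 92.3 to 98.1 at day 3 (median 94.3). All 4 groups overlapped. Its log2 fold changes were -0.09 ± 0.05, 0.05 ± 0.05 and -0.03 ± 0.05 at days 1, 2 and 3 (adjusted p = 0.695, 0.990 and 0.999). At day 2 the value was 0.15 in females alone (unadjusted p = 0.0134, adjusted p = 0.999) and -0.066 in males alone (unadjusted p = 0.341). Ddit3, which encodes the transcription factor CHOP that is induced when ER stress lasts, had medians of 16.7, 14.9, 16.7 and 15.9 CPM in the same order. Its largest log2 fold change was -0.07 ± 0.06, at day 1 (adjusted p = 0.879). A second identifier carrying the symbol Ddit3 had 0 reads in all libraries.

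Trib3, a pseudokinase gene that ATF4 and CHOP induce, showed the largest changes of the 40 members but rests on few reads, 4 to 27 per library. It had 0.223 to 0.763 CPM in vehicle (median 0.5996), 0.498 to 1.24 at day 1 (median 0.805), 0.873 to 1.37 at day 2 (median 1.06) and 0.201 to 1.19 at day 3 (median 0.648). Every library of day 2 lay above every vehicle library, while the other days overlapped vehicle. For Trib3 the log2 fold change was 0.70 ± 0.31 at day 1 (adjusted p = 0.6254), 1.04 ± 0.31 at day 2 (unadjusted p = 0.00229, adjusted p = 0.612) and 0.31 ± 0.33 at day 3 (adjusted p = 0.999). At day 2 the value was 0.67 in females alone (unadjusted p = 0.0684) and 1.62 in males alone, and at day 3 it ran from 0.094 to 0.49 when 1 library was left out. The 6 libraries of day 3 split into 3 at 0.201, 0.240 and 0.362 CPM and 3 at 0.933, 0.941 and 1.19 CPM. The 3 low ones were the 3 rich in Ttr, while the Ttr-rich libraries of the other groups were at 0.730 CPM in vehicle, 0.749 and 0.861 CPM at day 1, and 1.08 and 1.12 CPM at day 2. Without the 8 Ttr-rich libraries the log2 fold change of Trib3 at day 3 was 0.94 (unadjusted p = 0.00876, adjusted p = 0.705); the part that choroid plexus tissue plays in this was not tested.

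Ppp1r15a encodes GADD34, which brings a phosphatase to eIF2 and so ends the response. It had 11.3 to 14.97 CPM in vehicle (median 12.4), 11.2 to 14.7 at day 1 (median 12.7), 14.4 to 16.1 at day 2 (median 15) and 14.02 to 14.6 at day 3 (median 14.3). A single vehicle library, replicate 1 at 14.97 CPM, overlapped the days 2 and 3, and the other 5 vehicle libraries, at 11.3 to 12.5 CPM, lay below all libraries of both days. That library was set apart after its value was seen, and the share of all genes that separate in this way was not counted. On the log2 scale Ppp1r15a differed from vehicle by 0.03 ± 0.07 at day 1, 0.27 ± 0.07 at day 2 (unadjusted p = 7.39e-04, adjusted p = 0.367) and 0.18 ± 0.07 at day 3 (adjusted p = 0.648). In females alone the value was 0.37 at day 2 and 0.24 at day 3, and in males alone 0.11 (unadjusted p = 0.384) and 0.073. Without vehicle replicate 1, Ppp1r15a was called together with Sesn2 in the joint test of the 3 days. That fit drops the highest vehicle value of Ppp1r15a, so its call is no separate support for a change of this gene. The share of all genes called there is not given here. The other transcription factors and regulators, Atf5, Cebpb, Cebpg and Nupr1, had log2 fold changes between -0.21 and 0.19, and 0 of them had an unadjusted p under 0.05 on any day.

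Sesn2 was the member nearest to a call. It encodes Sestrin 2, an ATF4 target that binds leucine and restrains the growth kinase complex mTORC1. It had 14.2 to 17.9 CPM in vehicle (median 15.9), 16.2 to 17.7 at day 1 (median 17.2), 17.996 to 22.9 at day 2 (median 19.01) and 16.3 to 20.2 at day 3 (median 18.01). All 6 libraries of day 2 lay above all 6 of vehicle, though the lowest of day 2 and the highest of vehicle were close, at 17.996 and 17.9 CPM, and they also lay above all 6 of day 1, as did 0.0954% of all genes tested. Against vehicle, Sesn2 had a log2 fold change of 0.12 ± 0.07 at day 1 (adjusted p = 0.775), 0.32 ± 0.07 at day 2 (1.25-fold; unadjusted p = 7.85e-05, adjusted p = 0.0941) and 0.19 ± 0.07 at day 3 (adjusted p = 0.527). DESeq2 called it at day 2 (adjusted p = 0.0151), as did edgeR without the filter on low counts (adjusted p = 0.0301) and edgeR without vehicle replicate 1 (adjusted p = 0.0387). Without the filter, 86 of 36066 genes were called at day 2. The shares of all genes called by DESeq2 and without that library are not given here. The other 12 alternatives gave an adjusted p of 0.0614 to 0.999, and leaving out each of the other 23 libraries gave 0.0856 to 0.431. The log2 fold change stayed between 0.28 and 0.37 throughout. Without the 8 Ttr-rich libraries it was 0.28 (adjusted p = 0.460), in females alone 0.29 and in males alone 0.34.

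Over all genes tested, 0.245% had every library of day 2 above every vehicle library, and Sesn2 and Trib3 were the 2 members among them. At day 1 and day 3, 0 members were separate from vehicle in either direction, where 0.185% of all genes were separate and above at day 1, 0.412% separate and below at day 1, 0.579% above at day 3 and 0.0835% below at day 3.

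Stc2, which encodes the secreted glycoprotein stanniocalcin 2, had 1.19 to 2.62 CPM in vehicle (median 1.77), 1.37 to 2.85 at day 1 (median 1.82), 2.18 to 3.05 at day 2 (median 2.66) and 1.44 to 2.99 at day 3 (median 1.95). The groups overlapped, with the narrowest range at day 2. The log2 fold change at day 2 was 0.49 ± 0.19 (unadjusted p = 0.0174, adjusted p = 0.826). Chac1, whose enzyme degrades glutathione, reached 9.82 CPM in a library of day 2 (range 6.01 to 9.82), against 6.20 to 7.39 CPM in vehicle, and its log2 fold change was 0.17 ± 0.10 (adjusted p = 0.974). Eif4ebp1, a repressor of cap-dependent translation, and Ddit4, an inhibitor of mTORC1, had log2 fold changes between 0.03 and 0.18 on the 3 days, with SEs of 0.15 to 0.17 and unadjusted p-values of 0.295 and above.

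Gdf15 encodes a secreted cytokine that rises with cellular stress, and its reads were too few for the test. It had 0 to 5 reads per library in vehicle, 1 to 5 at day 1, 5 to 9 at day 2 and 0 to 5 at day 3, or 10, 15, 45 and 15 reads in all in the same order. As CPM the day 2 libraries were at 0.264 to 0.538, all above the vehicle libraries at 0 to 0.215. In reads, the highest vehicle library and the lowest of day 2 both had 5. The shares of separate genes given above do not cover Gdf15, which was not among the genes tested. In an edgeR fit with no filter, over 36066 genes, the log2 fold change at day 2 was 2.32 ± 0.62 (adjusted p = 0.0748) and the joint test of the 3 days gave an adjusted p of 0.0362. That fit called 86 genes at day 2 and 433 genes in the joint test.

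**Figure D3:**
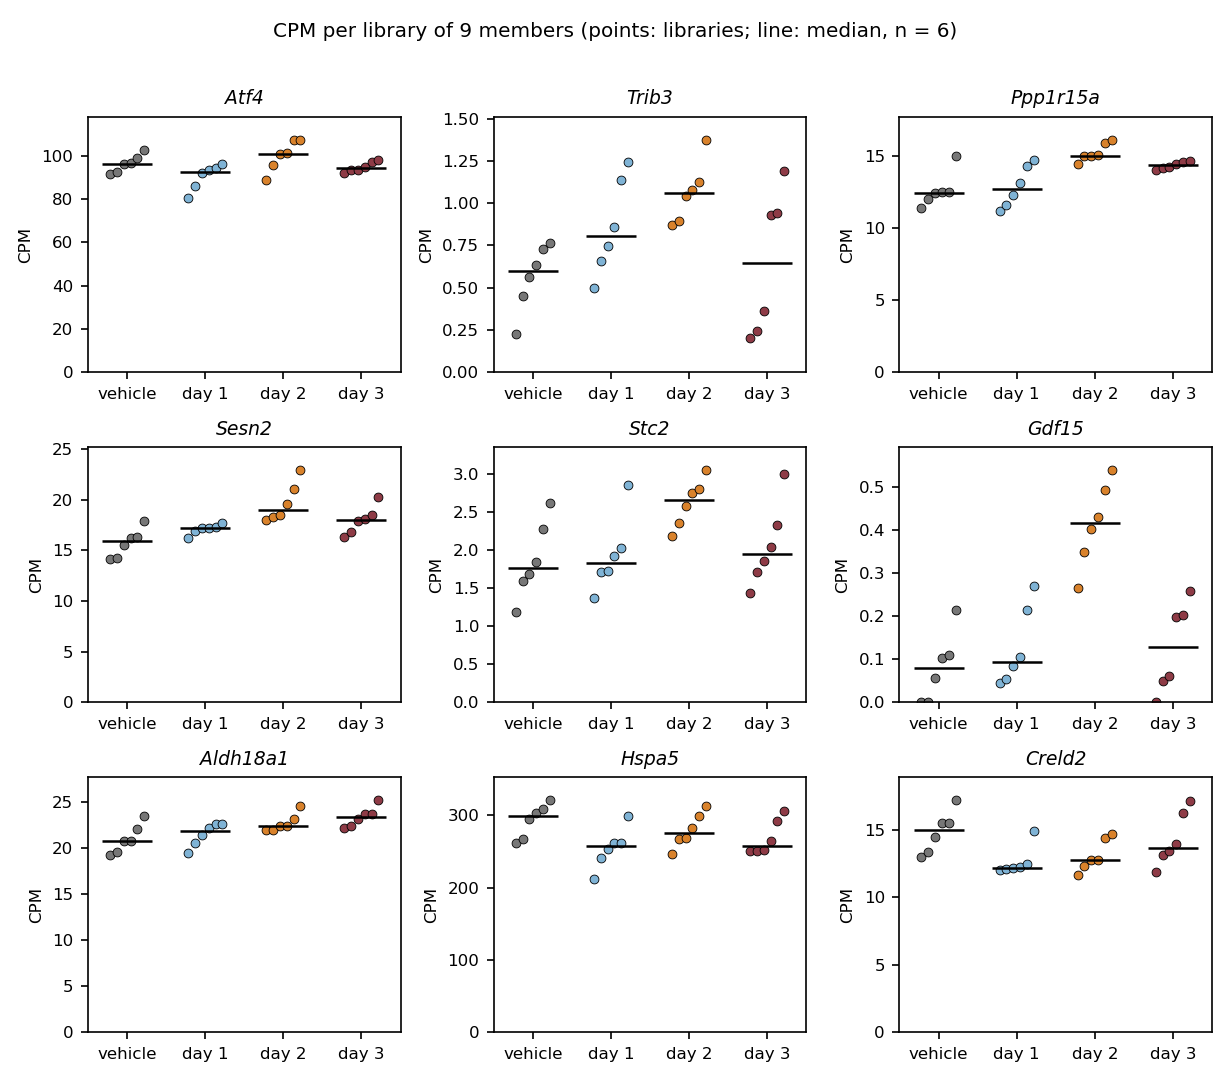
CPM of 9 members in each library (points) with the group median (line), for vehicle, day 1, day 2 and day 3, n = 6 per group. Sesn2, Trib3 and Gdf15 have every library of day 2 above every vehicle library; Atf4 and Hspa5 overlap in all groups, and Trib3 splits into a low and a high set at day 3.

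Genes for making amino acids and transferring single carbon units moved little. Asns, asparagine synthetase and a standard readout of ATF4, had 75.5 to 90.0 CPM in vehicle (median 80.5), 73.5 to 95.01 at day 1 (median 85.8), 80.2 to 91.4 at day 2 (median 87.1) and 77.8 to 84.6 at day 3 (median 81.8). The groups overlapped throughout, and the log2 fold change at day 2 was 0.09 ± 0.05 (adjusted p = 0.980). Without the Ttr-rich libraries the edgeR value of Asns at day 2 was 0.14 (unadjusted p = 0.0162, adjusted p = 0.604). At day 1 the value was 0.06 with all libraries and 0.14 without the Ttr-rich ones (unadjusted p = 0.012, adjusted p = 0.384). At day 3 the value without them was -0.013. Shmt2, the mitochondrial enzyme that splits serine into glycine and a carbon unit, had medians of 20.1, 21.5, 22.5 and 21.8 CPM in vehicle and at days 1, 2 and 3, with log2 fold changes of 0.18 ± 0.06 at day 2 (adjusted p = 0.749) and 0.14 ± 0.06 at day 3 (adjusted p = 0.719). Aldh18a1, an enzyme of proline synthesis, had 22.2 to 25.2 CPM at day 3 (median 23.4), against 19.3 to 23.5 CPM in vehicle (median 20.8), and a log2 fold change of 0.16 ± 0.06 (unadjusted p = 0.00859, adjusted p = 0.477). That value was 0.24 in females alone and 0.02 in males alone.

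Phgdh, which catalyses the first step of serine synthesis, had 58.7 to 69.8 CPM at day 2 (median 63.8), against 65.3 to 77.8 CPM in vehicle (median 68.8), with a log2 fold change of -0.13 ± 0.06 (unadjusted p = 0.0320, adjusted p = 0.915). Psat1 and Psph, which catalyse the following steps, had log2 fold changes of -0.06 ± 0.05 and 0.00 ± 0.08 at day 2. Of the 8 genes for synthesis, 5, 6 and 5 had a log2 fold change above 0 at days 1, 2 and 3, and all their changes lay between -0.15 and 0.22. Of the transporters, Slc3a2, the heavy chain shared by several amino acid exchangers, had 117 to 132 CPM at day 3 (median 120.2), against 108 to 121 CPM in vehicle (median 113). The ranges overlapped, and the log2 fold change was 0.11 ± 0.04 (unadjusted p = 0.0115, adjusted p = 0.557). Its partner Slc7a5 had a log2 fold change of -0.04 ± 0.06 at day 3, and Slc7a3, a transporter of cationic amino acids, one of 0.04 ± 0.15.

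None of the 10 ER chaperone and folding genes was called on any day. Of the 10, 3, 6 and 1 had a log2 fold change above 0 at days 1, 2 and 3, and all 30 values lay between -0.22 and 0.05. Hspa5, which encodes BiP, the main chaperone of the ER and the usual marker of its stress, had 261 to 320.4 CPM in vehicle (median 299), 212 to 299 at day 1 (median 258), 247 to 313 at day 2 (median 276) and 251 to 306 at day 3 (median 258). The groups overlapped, with each later median below that of vehicle. The log2 fold change was -0.19 ± 0.07 at day 1 (unadjusted p = 0.00939, adjusted p = 0.425), -0.06 ± 0.07 at day 2 and -0.11 ± 0.07 at day 3, and the upper ends of the 95% intervals were -0.05, 0.08 and 0.03. In the edgeR fit without a filter on low counts, Hspa5 was called at day 1 with a log2 fold change of -0.19 (adjusted p = 0.0127). That fit called 159 of 36066 genes at day 1, against 11 of 16767 (0.0656%) in the reported fit, so it called more genes in general. The cause was not tested.

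Creld2, an ER protein gene induced by ATF6, had 12.04 to 14.9 CPM at day 1 (median 12.2), against 13.0 to 17.2 CPM in vehicle (median 14.95). Its log2 fold change was -0.22 ± 0.09 (unadjusted p = 0.0200, adjusted p = 0.541). The lectin chaperones Calr and Canx had log2 fold changes between -0.06 and 0.05, and Hsp90b1, the ER member of the HSP90 family, had 0.04 ± 0.05, 0.05 ± 0.05 and -0.04 ± 0.05 at days 1, 2 and 3. Herpud1, a membrane protein gene of ER-associated degradation, was at -0.11 ± 0.06, 0.00 ± 0.06 and -0.07 ± 0.06. Edem1, which helps to pass misfolded glycoproteins on for degradation, had 22.5 to 28.01 CPM at day 3 (median 24.03), against 18.8 to 24.02 CPM in vehicle (median 21.6), with a log2 fold change of 0.19 ± 0.07 (unadjusted p = 0.00801, adjusted p = 0.463). Without the 8 Ttr-rich libraries that value was 0.04 (unadjusted p = 0.619).

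What the chaperones did share was a variation between libraries of the same group. In 18 of the 24 libraries, either at most 2 or at least 8 of the 10 chaperone genes lay above their own mean over all libraries. Such libraries occurred in every group: at least 8 genes were above in 3 libraries of vehicle, 1 of day 1, 2 of day 2 and 2 of day 3, and at most 2 genes in 2, 3, 2 and 3 libraries in the same order. The extremes were a library of day 3 with 10 of 10 genes above and libraries of vehicle, day 2 and day 3 with 0 of 10. For the 9 transcription factors and regulators, at most 2 or at least 7 genes above the mean occurred in 7 of 24 libraries, and for the 8 synthesis genes at most 2 or at least 6 in 5 of 24, counts given as a description with no test. The limits differ with the size of the list. Sets of other genes of like level were not counted, so whether this variation is particular to the chaperones was not tested. The mean centred log2 CPM of the 10 chaperones was 0.03 ± 0.09 in vehicle, -0.04 ± 0.08 at day 1, 0.02 ± 0.09 at day 2 and -0.01 ± 0.10 at day 3 (SD, n = 6), so the spread within each group was wider than the distance between any 2 group means. The 5 tested effectors Sesn2, Chac1, Stc2, Eif4ebp1 and Ddit4 had means of -0.11 ± 0.08, -0.03 ± 0.08, 0.14 ± 0.15 and -0.00 ± 0.08 in the same order, and their ranges in vehicle and at day 2 overlapped.

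**Figure D4:**
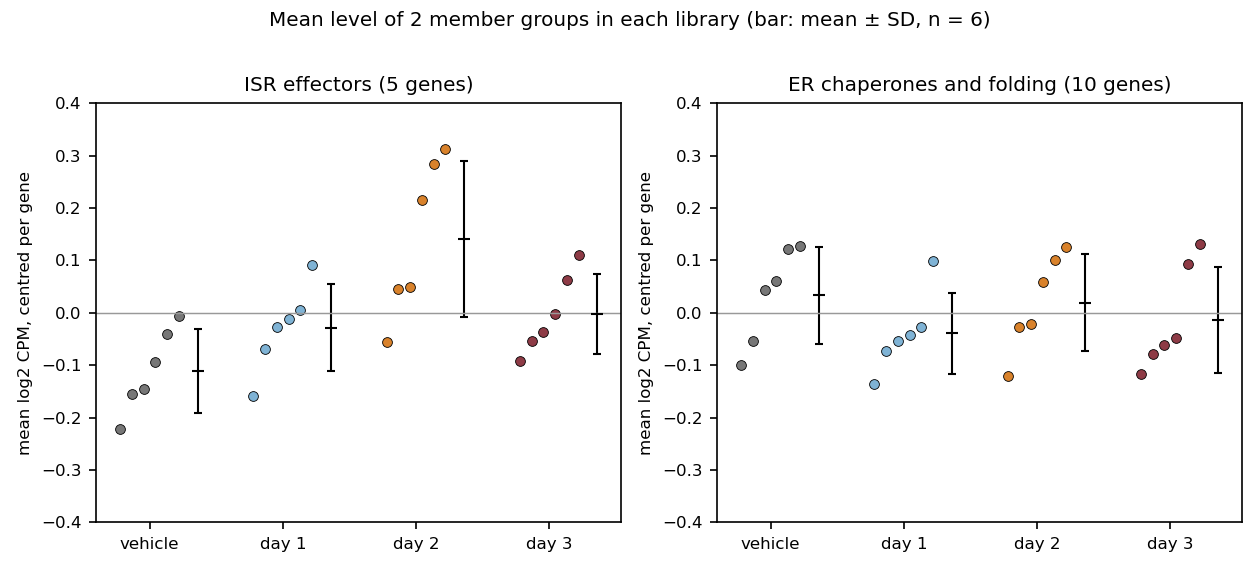
Mean of the centred log2 CPM of the 5 tested ISR (integrated stress response) effectors and of the 10 ER chaperone and folding genes in each library (points), with the mean ± SD of each group, n = 6. The effectors have their highest group mean at day 2, and the chaperones spread over similar ranges, on both sides of 0, in all 4 groups.

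Day 2 was the group with the highest fitted level for 19 of the 40 members (47.5%), against 22.7% of all genes. Vehicle was highest for 9, day 1 for 4 and day 3 for 8 members, against 25.9%, 26.4% and 25.1% of all genes. By role, day 2 was highest for 5 of 9 transcription factors and regulators (Eif2ak3 included), 4 of 5 effectors, 3 of 8 synthesis genes and 4 of 10 chaperones. Day 1 was lowest for 6 of 10 chaperones, against 27.2% of all genes. Members vary together, so these counts are a description with no test. In the comparisons between days, 0 of 40 members were called at day 2 against day 1 (0.0119% of all genes called), at day 3 against day 2 (0.131%) or at day 3 against day 1 (0.650%). DESeq2 and limma voom also called 0 in each. The smallest adjusted p was that of Ppp1r15a at day 3 against day 1, with a log2 fold change of 0.15 ± 0.07 (unadjusted p = 0.0366, adjusted p = 0.540). At day 2 against day 1 its log2 fold change was 0.24 ± 0.07 (unadjusted p = 0.00185, adjusted p = 0.790). At an unadjusted p under 0.05, 5 members (Atf4, Ppp1r15a, Sesn2, Chac1 and Stc2) were higher at day 2 than at day 1 and 0 were lower, against 2.43% and 1.82% of all genes. At that level Trib3 and Mthfd2 were lower and Phgdh was higher at day 3 than at day 2, against 2.06% and 2.89% of all genes, and Ppp1r15a and Aldh18a1 were higher and 0 members lower at day 3 than at day 1, against 5.12% and 3.27%. Between days, the groups of 1 member did not overlap (Sesn2, day 2 above day 1), and 0 members lay separate in another direction. For all genes the shares were 0.0716% for day 2 below day 1, 0.268% and 0.0537% for day 3 above and below day 2, and 0.614% and 0.215% for day 3 above and below day 1.

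No member passed the test of a change that differs between the sexes. In a fit with a day by sex interaction, 0 of 40 members were called (0.00% of all genes), with a smallest adjusted p of 1.00 to 3 digits, and 4 members had an unadjusted p under 0.05 (Atf4, Nupr1, Aldh18a1 and Pck2), against 3.49% of all genes. With 2 vehicle males, the interaction has little precision.

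Other genes of the same pathways, taken from lists of textbook members, gave 2 called genes. Like the members, these lists were chosen with earlier results of these data known. Of all genes tested, 0.0656%, 0.0656% and 0.614% were called at days 1, 2 and 3. The 2 genes were not followed through the alternative fits. Of 18 tested further targets of ATF4, Atf3, a transcription factor gene that many kinds of stress and injury induce, was the 1 called, and it rose at day 2 and day 3. It had 0.256 to 0.849 CPM in vehicle (median 0.466), 0.259 to 1.14 at day 1 (median 0.755), 0.896 to 1.74 at day 2 (median 1.40) and 1.02 to 1.86 at day 3 (median 1.44). These levels are about as low as those of Trib3, so Atf3 also rests on few reads. All libraries of days 2 and 3 lay above all of vehicle, where 0.245% and 0.579% of all genes did so at days 2 and 3. The log2 fold change of Atf3 was 1.41 ± 0.29 at day 2 (adjusted p = 0.0499, just under the threshold) and 1.53 ± 0.28 at day 3 (adjusted p = 0.00265). Of 16 other kinases and eIF2 components, Eif2ak2 rose at day 3. It encodes PKR, a kinase of eIF2 that senses double-stranded RNA and is induced by interferon, and it had 7.33 to 9.76 CPM at day 3 (median 8.65), against 5.14 to 7.62 CPM in vehicle (median 6.03), with a log2 fold change of 0.49 ± 0.12 (adjusted p = 0.0440).

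The remaining lists held no called gene on any day. Among 20 aminoacyl-tRNA synthetases, which charge tRNAs and are partly ATF4 targets, 15, 19 and 16 had a log2 fold change above 0 at days 1, 2 and 3, with medians of 0.03, 0.05 and 0.04. At day 2, 4 of them had an unadjusted p under 0.05, all higher (Aars, Cars, Gars and Mars1), and their largest change was 0.17 (Cars, adjusted p = 0.749). Among 31 further genes of ER folding and quality control, 16, 15 and 14 were above 0, with medians of 0.00, -0.00 and -0.00. Among 10 further sensors and processing factors of the unfolded protein response, 6, 6 and 6 were above 0, and among 8 mitochondrial chaperones and proteases 5, 6 and 5.

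Some markers of other cell types differed beside these genes. Gfap, a marker of reactive astrocytes, rose at day 2 (log2 fold change 0.51 ± 0.08, adjusted p = 0.00116) and day 3 (1.12 ± 0.08, adjusted p = 1.77e-10), and microglial genes, among them Cx3cr1 and Fcrls, rose at day 3. Of the 8 astrocyte markers, Gfap included, 3, 3 and 4 had a log2 fold change above 0 at days 1, 2 and 3, with medians of -0.05, -0.04 and 0.01. The 9 microglial markers summed to 343 to 434 CPM at day 3, against 302 to 347 CPM in vehicle. The 6 markers of superficial entorhinal neurons summed to 591 to 719 CPM in vehicle. At days 1, 2 and 3 they summed to 607 to 706, 567 to 715 and 572 to 676 CPM. The 8 markers of endothelium and pericytes summed to 264 to 346 CPM in vehicle. Their sums were 277 to 365, 279 to 334 and 281 to 342 CPM at days 1, 2 and 3. Of 5 red blood cell genes, 4 had an unadjusted p under 0.05 at day 2 and 0 were called, with a median log2 fold change of 0.71, and their sum was 70.5 to 308 CPM at day 2, against 65.7 to 160 CPM in vehicle. With the level of the haemoglobin gene Hbb-bs as a covariate, the log2 fold change of Sesn2 at day 2 was 0.34 (adjusted p = 0.143). All 12 choroid plexus markers had a log2 fold change above 0 on each day and 0 were called. Interneuron, excitatory neuron and oligodendrocyte markers were more often below 0 than above it, with 0 called. Of 7 interneuron markers, 3, 4 and 3 were lower at an unadjusted p under 0.05 at days 1, 2 and 3, with medians of -0.12, -0.11 and -0.08. Of 8 excitatory neuron markers, 3, 2 and 1 were lower at that level, with medians of -0.06, -0.03 and -0.05. Of 8 oligodendrocyte markers, 3, 0 and 2 were above 0, with medians of -0.01, -0.13 and -0.02, and 2 were lower at that level at day 2. The part of these cells in the values of the members was not tested beyond these figures.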

How the data were processed

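RNA from 24 entorhinal cortex libraries was measured by bulk RNA-seq, and the authors deposited raw counts per gene. Per the submitters' processing notes, fastp 0.23.1, STAR 2.7.9a, DESeq2 1.32.0 and the mm39 build were used; no source used here names the read counter, the annotation or the use of strand, so reads of overlapping antisense genes cannot be told apart.

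All tests used edgeR 4.0.16 (R 4.3.3) on these counts: TMM factors, a filter on low counts (filterByExpr, minimum count 10, minimum total 15), a model of group and sex over all 24 libraries, the two-sided quasi-likelihood test and Benjamini-Hochberg adjustment over all tested genes, with a call at an adjusted p under 0.05. SE is the size of the log2 fold change divided by the square root of F. DESeq2 1.42.0 and limma 3.58.1 (voom) were alternatives, beside other factors, filters, covariates and left-out libraries. Scripts were tested on simulated data. Log2 CPM in the per-library means used a prior count of 2.

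Libraries were numbered in accession order, and each is taken as an animal; where replicates are not separate animals, p-values measure only the spread between samples. Named members were those with the 12 smallest joint p-values and standard readouts of the pathways; further members were named after their values were seen. The members and lists were chosen with earlier results of these data known. Promoter windows came from RefSeq (GRCm38.p6). The values of 1 marker gene are not reported here.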

Additional observations from a re-analysis of the deposited data

Results flagged for a closer look

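In 7 of 160 groups of 6 libraries, 1 library of a member stood far from the others by Dixon's criterion, which chance alone meets in about 1 of 20 groups. Vehicle replicate 1 had 14.97 CPM of Ppp1r15a, with the next library at 12.5 CPM. Vehicle replicate 3 had the lowest Atf6, 67.8 CPM, with the next at 81.3 CPM. Psph was at 15.4 CPM in vehicle replicate 6, with the next at 14.2 CPM. At day 1, replicate 5 had 14.9 CPM of Creld2, with the next at 12.5 CPM. At day 3, replicate 1 had 21.5 CPM of Atf5 (next 15.9 CPM) and 83.7 CPM of Phgdh (next 70.9 CPM), and replicate 5 had 56.7 CPM of Herpud1 (next 46.7 CPM).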

How the results depend on the processing

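No paired analysis was possible because the labels give no replicate numbers that groups share; a fit with the first digits of the animal number as a factor was run instead and called 0 members in every comparison. Among 14 alternatives and 24 fits that leave out 1 library each, the count of called members was 0 in every comparison, with these exceptions. Without a filter on low counts it was 1 at day 1 (Hspa5), 1 at day 2 (Sesn2) and 2 over the 3 days jointly (Gdf15 and Hspa5). Of all 36066 genes, that fit called 159, 86 and 433 in the same order. With DESeq2 the count of members was 1 at day 2 and 1 jointly (Sesn2 in both). With 1 library left out it was 0 to 1 at day 2 and 0 to 2 jointly, and the calls (Sesn2 at day 2, Ppp1r15a and Sesn2 jointly) came without vehicle replicate 1. The cause was not tested. Of 54 log2 fold changes of named members, 17 changed sign somewhere, none with a size above 0.12 in the reported fit, and the smallest unadjusted p of a reversed value was 0.119. The values that changed sign were as follows. With upper-quartile factors, Asns at day 3 was 0.0059. Without the sex term, Phgdh and Ddit3 at day 3 were -0.00048 and -0.0020. With the first digits of the animal number as a factor, day 1 gave -0.061 for Stc2 and 0.012 for Chac1, day 2 gave 0.00052 for Hspa5, and day 3 gave 0.0010 for Atf4, 0.016 for Creld2 and 9.03e-05 for Asns. With Ttr as a covariate, Asns at day 3 was 0.030. With Hbb-bs as a covariate, an alternative chosen after seeing the data, Herpud1 at day 2 was -0.0048, and at day 3 Ddit3 was -0.00092 and Asns 0.0053. Without the 8 Ttr-rich libraries, day 1 gave -0.012 for Ppp1r15a, -0.17 for Stc2 and 0.050 for Chac1, day 2 gave -0.026 for Herpud1, and day 3 gave 0.064 for Creld2, -0.021 for Chac1 and 0.021 for Herpud1. In females alone, day 3 gave 0.0041 for Atf4, -0.011 for Ddit3 and -0.026 for Chac1. In males alone, day 1 gave -0.075 for Ppp1r15a, -0.15 for Aldh18a1 and -0.18 for Stc2, day 2 gave -0.066 for Atf4 and -0.014 for Aldh18a1, and day 3 gave 0.0067 for Creld2 and 0.053 for Asns. Leaving out 1 library at a time, the values that crossed 0 at day 1 ran from -0.016 to 0.088 for Ppp1r15a, -0.093 to 0.21 for Stc2, -0.045 to 0.00028 for Phgdh, -0.079 to 0.021 for Chac1 and -0.11 to 0.033 for Ern1. At day 2 Herpud1 ran from -0.020 to 0.019. At day 3 Creld2 ran from -0.10 to 0.019, Phgdh from -0.043 to 0.037, Ddit3 from -0.029 to 0.045, Chac1 from -0.013 to 0.038 and Asns from -0.021 to 0.027. Among the members, depth limits Trib3 and Gdf15 most, with at most 27 and 9 reads per library.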
